A study of Homo sapiens with 6 samples.

Results

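The aminoacyl-tRNA synthetases, the enzymes that load each amino acid onto its tRNA, were followed in DU145, a line of human prostate cancer cells that grow without androgen. Libraries titled siCtrl (control siRNA, genotype given as RCC2 wild type) were compared with libraries titled siRCC2 (siRNA against RCC2, a regulator of chromosome condensation, to knock it down). The members were taken by gene name from the 50868 genes in each library's count table. They are 38 genes: 19 for cytosolic enzymes or their subunits, 16 for mitochondrial enzymes (names ending in 2) and 3 for cofactors of the cytosolic multisynthetase complex (AIMP1, AIMP2 and EEF1E1). All 38 had a row, and all 38 passed the filter on low counts. Each group had 3 libraries of RNA sequencing, and no agent other than the siRNAs is named in the labels. Whether the 3 came from 3 cultures, and how long after the siRNA the RNA was taken, is not given in the sources used here, so a p-value covers the spread of these libraries only, and that spread may be technical.

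The gene family was chosen with results of this same comparison known. The fold changes and calls below come from 1 test across all 16536 tested genes (edgeR, adjusted p under 0.05) and describe the members. They are not independent evidence about the family.

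Cytosolic synthetases serve the ribosomes of the cytoplasm. Mitochondrial synthetases are mostly separate enzymes that are encoded in the nucleus and imported, and they charge the tRNAs with which mitochondria make a few subunits of the respiratory chain. Several cytosolic synthetases sit in the multisynthetase complex, held together by the 3 cofactors, and the others work outside it. When amino acids run short, the kinase GCN2 phosphorylates the initiation factor eIF2, and the transcription factor ATF4 is then made. ATF4, paired with a C/EBP protein, binds a DNA element called CARE (C/EBP-ATF response element) and is known to raise many cytosolic synthetase genes.

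Total counts were between 17377191 and 19895431 per library, and levels are given as CPM, a gene's counts set to a common library size after TMM scaling. RCC2 fell from 198, 194 and 191 CPM in siCtrl to 59.3, 57.6 and 54.8 CPM in siRCC2 (194 ± 3.84 and 57.2 ± 2.25, SD, n = 3 libraries each). The members took 0.802 to 0.818% of all counts in siCtrl and 0.440 to 0.442% in siRCC2. Among the siRCC2 libraries, replicate 1 stood apart on the second principal component of all genes (41.5, against -13.3 and -35.2 for replicates 2 and 3). Epithelial markers were present in every library, with a summed level of 1309 to 1331 CPM in siCtrl and 1620 to 1819 CPM in siRCC2. They did not move together. KRT8 (462 to 729 CPM), KRT18 (318 to 452 CPM) and CDH1 (82.9 to 101 CPM) were higher in siRCC2. EPCAM (15.4 to 11 CPM) was lower, and KRT19 (442 to 399 CPM) did not pass. KLK2, which marks luminal prostate cells, had 0 counts in every library, and KLK3 and TMPRSS2 ranged from 0 to 3 counts. Of 11 leukocyte, endothelial and fibroblast markers, 3 had 0 counts throughout, and the highest was COL1A1 (12.5 and 9.22 CPM). Their summed levels in siCtrl and siRCC2 were 3.56 to 3.82 and 1.89 to 3.3 CPM for leukocytes, 0.309 to 0.808 and 0.262 to 0.67 CPM for endothelium, and 12.6 to 14.7 and 9.79 to 12.6 CPM for fibroblasts. The part of these markers in the results was not tested.

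The CARE-type matches in the promoters are shown first. All the cytosolic genes that hold one were lower in siRCC2, but the family was chosen with results of this contrast known. The matches are therefore a description, and a part of CARE in the changes was not tested. The search used RefSeq promoter windows (GRCh38.p14) of 300 bases, 250 before the transcription start and 50 from it on, for the 33 members that the table holds. It looked for TGATGNAA, where N is any base, on both strands. Its form TGATGCAA is a subset and is counted within it. Each line gives 30 bases, 5′ to 3′ on the strand on which the match reads forward, with the 8 matching bases in capitals and the genes in order of their fold change:
TARS1: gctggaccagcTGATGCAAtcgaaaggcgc
MARS1: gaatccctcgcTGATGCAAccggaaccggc
GARS1: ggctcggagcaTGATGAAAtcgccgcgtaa
AARS1: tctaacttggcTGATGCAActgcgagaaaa
IARS1: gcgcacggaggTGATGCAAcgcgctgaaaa
NARS1: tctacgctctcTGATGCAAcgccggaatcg
CARS1: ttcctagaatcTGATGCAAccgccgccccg
YARS2: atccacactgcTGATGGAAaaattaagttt

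These stretches lie at chr5:33440956-33440985 (TARS1, minus strand), chr12:57488053-57488082 (MARS1, minus), chr7:30594834-30594863 (GARS1, minus), chr16:70289675-70289704 (AARS1, plus), chr9:92293692-92293721 (IARS1, plus), chr18:57621804-57621833 (NARS1, minus), chr11:3057407-3057436 (CARS1, plus) and chr12:32756076-32756105 (YARS2, minus). In NARS1 and YARS2 the match reads on the gene's own strand, and in the other 6 on the opposite strand. The matches sit close to the start in TARS1 (bases 2 to 9 after it), MARS1 (-4 to 3), CARS1 (-2 to 5), IARS1 (-13 to -6), NARS1 (14 to 21) and GARS1 (-33 to -26). In these 6 genes GENCODE release 29 places the match fully or partly in a 5′ UTR exon of at least 1 coding transcript, and in TARS1 other transcripts have it in an intron. In AARS1 (-187 to -180) and YARS2 (-197 to -190) it lies outside the annotated transcripts of the gene.

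Of the 16 cytosolic genes with a window, 7 held a match, a share of 43.8%. All 7 were among the 11 with a window that were lower in siRCC2 (63.6%). The other 4 that were lower, EPRS1, QARS1, SARS1 and WARS1, held no match in their windows. KARS1, HARS1, RARS1, FARSA and FARSB, the 5 that were not lower, held none either. Among the mitochondrial genes 1 of 14 held a match (7.14%), and none of the 3 cofactors did. TGATGNAA occurs in 3.62% of all 35116 windows in the table and in 2.76% of the 11180 tested genes with a window. Among the tested genes with a window it was found in 3.95% of those lower in siRCC2, 1.89% of those higher and 2.62% of those that did not pass. TGATGCAA, the form in 6 of the 8 members, occurs in 0.866% of all windows. A match is a string of letters and does not show that a factor binds there. The table holds no window for AARS2, LARS1, VARS1, VARS2 and YARS1.

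**Figure D1:**
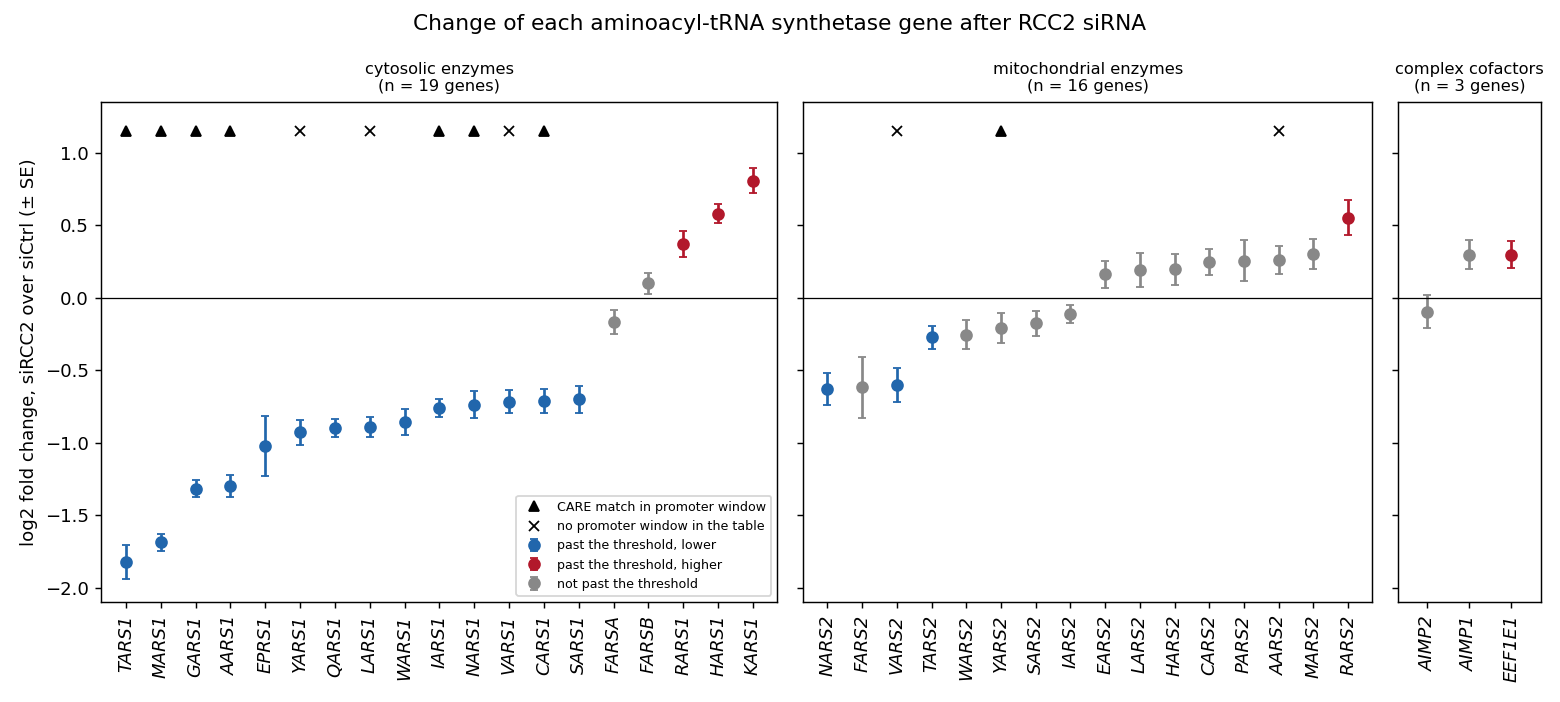
The log2 fold change (siRCC2 over siCtrl, vertical axis, with its standard error) is plotted for each gene in order within the 3 groups, coloured by whether it passed the threshold of the test across all genes; triangles mark genes with a CARE match and crosses genes without a window. From TARS1 to SARS1, 14 cytosolic genes lie at or below -0.70, while the mitochondrial genes lie between -0.63 and 0.55.

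Over the 38 members, 17 were lower in siRCC2, 5 were higher and 16 did not pass, and in 33 the libraries of the 2 groups did not overlap. Across all tested genes 41.8% passed in either direction, and 55.4% had groups that did not overlap.

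Of the 19 cytosolic genes, 14 were lower in siRCC2 (73.7%), 3 were higher and 2 did not pass, with a median log2 fold change of -0.76. Across all tested genes 21.1% were lower and 20.7% higher, and the median was -0.02. The 6 libraries divided without overlap, with siRCC2 lower, in the same 14 genes, against 28.5% of all tested genes. A fall of at least 2-fold was found for 5 of the 19, against 7.19% of all genes, and a rise of that size for none, against 4.86%. As the family was chosen on this contrast, nothing further is read from these shares. Without siRCC2 replicate 1 the count of lower cytosolic genes was 15, FARSA being the addition.

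TARS1, the threonyl-tRNA synthetase (chromosome 5, 33440696 to 33469539, plus strand), had the lowest fold change. Its levels were 475, 472 and 507 CPM in siCtrl and 114, 141 and 156 CPM in siRCC2. The groups lay far apart, and siRCC2 replicate 1 was the lowest library. The log2 fold change was -1.82 ± 0.12 (SE).

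MARS1, the methionyl-tRNA synthetase of the multisynthetase complex (chromosome 12, 57475445 to 57517569, plus strand), had 624, 605 and 613 CPM in siCtrl and 189, 197 and 186 CPM in siRCC2. Both groups were tight, and the log2 fold change was -1.69 ± 0.06. MARS1 overlaps DDIT3, the gene of the stress factor CHOP, on the opposite strand over 355 exonic bases (5.05% of the MARS1 exons). DDIT3 fell too, from 56.9 to 23.6 CPM. It also overlaps ARHGAP9, which had 1 to 12 counts per library. Whether the counting used strand is not given in the sources used here, so reads from that stretch could belong to either gene.

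GARS1, the glycyl-tRNA synthetase (chromosome 7, 30594681 to 30634033, plus strand), had 573, 560 and 566 CPM in siCtrl and 236, 226 and 219 CPM in siRCC2 (-1.32 ± 0.06). One gene supplies this enzyme to the cytosol and to mitochondria. AARS1, the alanyl-tRNA synthetase (chromosome 16, 70252295 to 70289543, minus strand), was the most abundant member. It had 1827, 1780 and 1768 CPM in siCtrl and 787, 735 and 665 CPM in siRCC2 (-1.30 ± 0.08). In both genes the groups lay far apart.

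EPRS1 encodes a fused enzyme for glutamate and proline and is a scaffold of the multisynthetase complex (chromosome 1, 219968601 to 220046658, minus strand). Its levels were 299, 298 and 330 CPM in siCtrl and 103, 159 and 193 CPM in siRCC2. The groups did not overlap, but the siRCC2 libraries were spread widely for their mean (152 ± 45.1 CPM, SD), with replicate 1 lowest. The log2 fold change was -1.02 ± 0.21, and -0.83 without that library.

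The other 9 cytosolic genes that fell did so within a narrow range. They were the synthetases for tyrosine (YARS1, -0.93), glutamine (QARS1, -0.90), leucine (LARS1, -0.89), tryptophan (WARS1, -0.86), isoleucine (IARS1, -0.76), asparagine (NARS1, -0.74), valine (VARS1, -0.72), cysteine (CARS1, -0.72) and serine (SARS1, -0.70). Their standard errors ran from 0.06 to 0.10. QARS1, for example, had 190, 192 and 195 CPM in siCtrl and 101, 103 and 105 CPM in siRCC2.

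KARS1, HARS1 and RARS1 rose. KARS1, the lysyl-tRNA synthetase, is a subunit of the multisynthetase complex and, like GARS1, also supplies mitochondria (chromosome 16, 75627474 to 75648643, minus strand). It had 164, 170 and 176 CPM in siCtrl and 329, 291 and 273 CPM in siRCC2 (0.81 ± 0.08). All 3 siRCC2 libraries were higher, replicate 1 the most. KARS1 starts beside TERF2IP, a gene of the telomere protein RAP1 on the opposite strand, and shares 176 exonic bases with it (4.33% of the KARS1 exons). TERF2IP rose as well, from 37.3 to 73.7 CPM (0.98 ± 0.24). Because the strand setting is unknown, the split of reads over the shared bases between KARS1 and TERF2IP is uncertain.

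HARS1, the histidyl-tRNA synthetase (chromosome 5, 140673173 to 140692024, minus strand), had 59.6, 60 and 58.6 CPM in siCtrl and 90.9, 89.2 and 86 CPM in siRCC2 (0.58 ± 0.07). It faces its mitochondrial counterpart HARS2 on the other strand. The RefSeq starts of the pair are 85 bases apart, their promoter windows share 184 bases, and their exons overlap by 437 bases. HARS2 had 17.9, 21.1 and 17.7 CPM in siCtrl and 22.1, 21.6 and 21.3 CPM in siRCC2, and its fold change (0.20 ± 0.11) did not pass. With strand unknown, the split of reads between the pair is uncertain.

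RARS1, the arginyl-tRNA synthetase of the complex (chromosome 5, 168486445 to 168519299, plus strand), had 52.8, 52.1 and 53.2 CPM in siCtrl and 61.9, 68.3 and 74.3 CPM in siRCC2 (0.37 ± 0.09). The groups did not overlap. The call was lost without siCtrl replicate 2 (edgeR adjusted p = 0.0520). FARSA and FARSB, the 2 subunits of the phenylalanyl-tRNA synthetase, had fold changes of -0.17 ± 0.08 and 0.10 ± 0.07 and did not pass. FARSA passed, lower, without siRCC2 replicate 1 (-0.25, edgeR adjusted p = 0.0183) and with total counts as the scaling (-0.24, edgeR adjusted p = 0.0295).

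**Figure D2:**
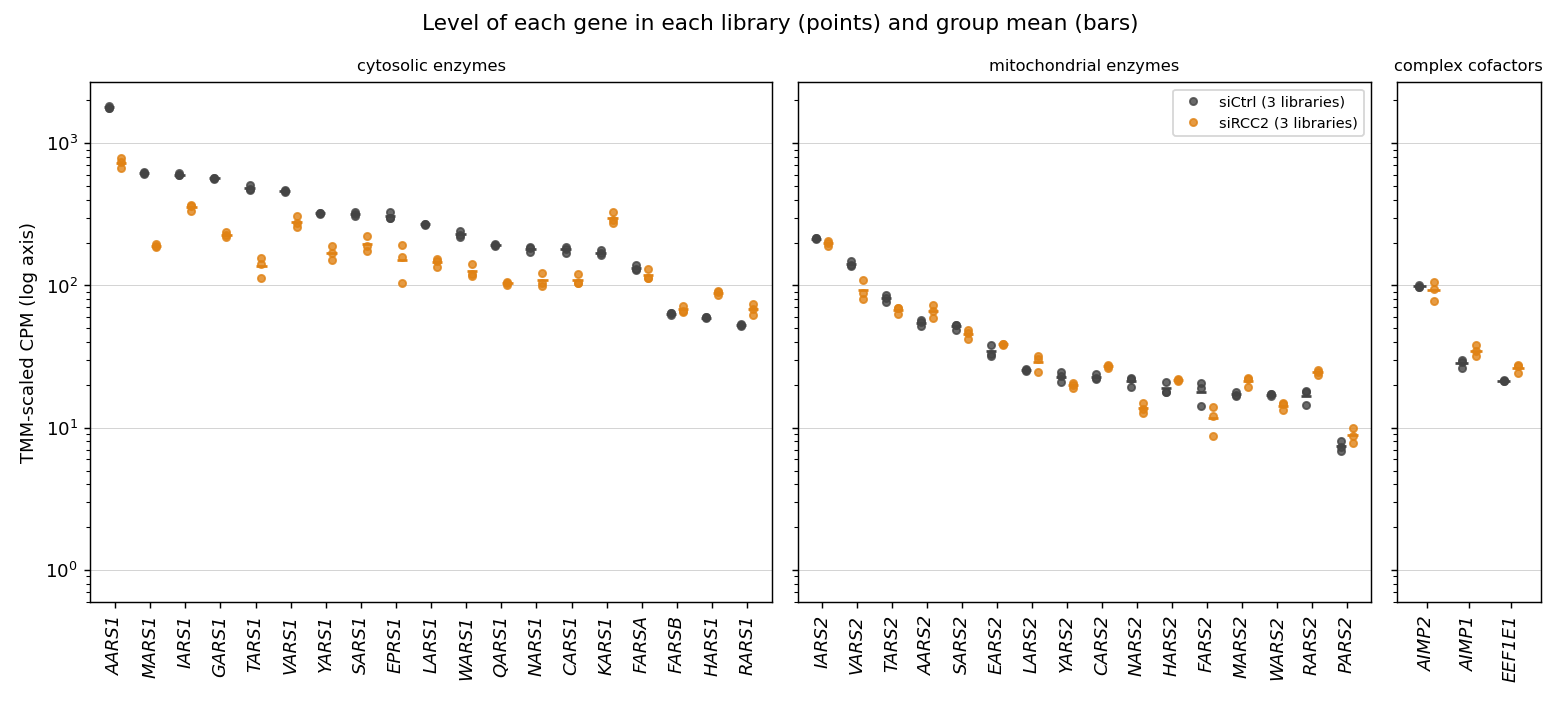
Each point is the TMM-scaled CPM of a gene in 1 library (log axis) and each short bar the mean of 3, with siCtrl in grey and siRCC2 in orange; genes are ordered by their siCtrl level. Among the cytosolic genes the orange points lie below the grey ones except for KARS1, FARSB, HARS1 and RARS1, and in FARSA, where the groups overlap.

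Levels were compared between genes per length. Per kilobase of the longest coding transcript, the cytosolic genes in siCtrl ranged from 17 (HARS1) to 515 (AARS1) CPM per kb, with a median of 70.2. In siRCC2 they ranged from 20.2 (FARSB) to 210 (AARS1), with a median of 40.8. On this scale MARS1 went from 211 to 65.7 and TARS1 from 112 to 31.7 CPM per kb, while KARS1 went from 70.2 to 123 CPM per kb. KARS1 stood at the median of the cytosolic genes in siCtrl and was behind AARS1 alone in siRCC2.

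The summed level of the 19 cytosolic genes was 7025, 6955 and 7016 CPM in siCtrl and 3757, 3662 and 3589 CPM in siRCC2. AARS1 made up 25.2 to 26% of the sum in siCtrl and 18.5 to 20.9% in siRCC2. Without AARS1 the sums were 5175 to 5247 CPM in siCtrl and 2924 to 2970 CPM in siRCC2, so the lower sum did not depend on that gene. In these bulk libraries, fewer cells that express a gene and less RNA per cell cannot be told apart.

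**Figure D3:**
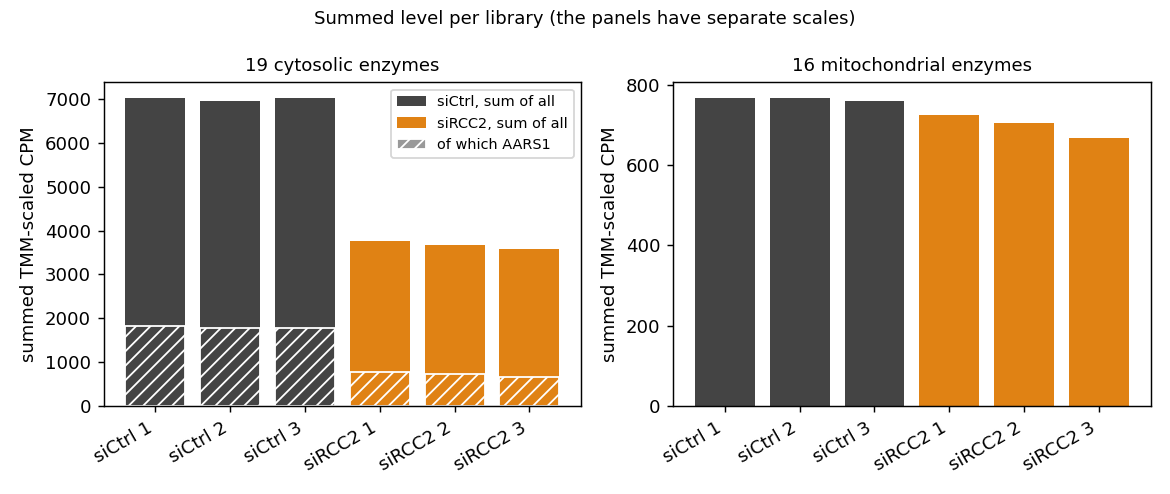
Bars give the summed TMM-scaled CPM of the cytosolic genes (left, AARS1 hatched) and the mitochondrial genes (right) in each library, on separate axes that start at 0. The cytosolic sum is 6955 to 7025 CPM in siCtrl and 3589 to 3757 CPM in siRCC2, and the mitochondrial sum 759 to 768 and 669 to 724 CPM.

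Both directions occurred inside and outside the multisynthetase complex. Of the 7 enzymes of the complex among the members, 5 were lower (MARS1, EPRS1, QARS1, LARS1 and IARS1) and 2 higher (KARS1 and RARS1), with a median of -0.89. Of the 12 cytosolic genes outside it, 9 were lower and 1 higher, with a median of -0.73. No test of the difference was made. Synthetases also fall into classes I and II by the fold of their catalytic domain, and both classes held both directions. Of 9 cytosolic class I genes 8 were lower and 1 higher (median -0.86), and of 9 class II genes 5 were lower and 2 higher (median -0.70). EPRS1 holds an enzyme of each class.

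None of the 3 cofactors of the complex was past the threshold as lower. AIMP1, a scaffold that also binds tRNA, had 28.9, 29.9 and 26.4 CPM in siCtrl and 32.1, 34.5 and 37.9 CPM in siRCC2 (0.30 ± 0.10). The groups did not overlap, but it did not pass (edgeR adjusted p = 0.0525). It did pass in 5 of the 15 alternatives: with DESeq2-type size factors (0.0397), by DESeq2 (0.0478) and limma-voom (0.0476), with a mean of at least 1 CPM (0.0395) and without siRCC2 replicate 1 (0.0231). Of the AIMP1 exonic bases 11.6% also belong to exons of TBCK on the opposite strand. TBCK fell from 13.0 to 9.40 CPM (-0.46 ± 0.14), so the AIMP1 value is uncertain. AIMP2, the central scaffold, had 98, 101 and 97.4 CPM in siCtrl and 105, 77.8 and 94 CPM in siRCC2 (-0.10 ± 0.11), and its groups overlapped. Of its exonic bases 28.9% also belong to exons of EIF2AK1 on the opposite strand, which fell from 227 to 79.8 CPM, so the AIMP2 value is uncertain.

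EEF1E1, also known as AIMP3, had 21.6, 21.3 and 21.4 CPM in siCtrl and 24.2, 27 and 27.7 CPM in siRCC2 (0.30 ± 0.09). It passed as higher (edgeR adjusted p = 0.0405), but the call was lost without any of 5 libraries in turn (0.0857 to 0.115) and kept without siRCC2 replicate 1 (0.0146). A readthrough gene, EEF1E1-BLOC1S5, shares 18.65% of the EEF1E1 exonic bases on the same strand and had 0 to 10 counts per library. Of the 50-base stretches of the EEF1E1 transcript 33.95% also occur in other genes, most often in that one.

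Of the 16 mitochondrial genes, 3 were lower, 1 was higher and 12 did not pass, with a median log2 fold change of 0.02. The shares of 18.8% lower and 6.25% higher stand beside 21.1% and 20.7% of all tested genes. The libraries of the groups did not overlap in 13 of the 16, with siRCC2 lower in 8 and higher in 5. Across all tested genes 55.4% did not overlap, 28.5% with siRCC2 lower and 26.9% with it higher. None changed 2-fold. The sign of the median depended on the scaling: it was -0.05 with total counts alone, a setting that put the median of all genes at -0.08. Without siRCC2 replicate 1, 4 were lower, FARS2 being the addition. The summed level was 768, 766 and 759 CPM in siCtrl and 724, 706 and 669 CPM in siRCC2.

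NARS2, the mitochondrial asparaginyl-tRNA synthetase (chromosome 11, 78435961 to 78574874, minus strand), had 19.5, 22.2 and 21.9 CPM in siCtrl and 14.9, 12.7 and 13.5 CPM in siRCC2 (-0.63 ± 0.11). VARS2, for valine (chromosome 6, 30908242 to 30926459, plus strand), had 140, 136 and 148 CPM in siCtrl and 109, 88.7 and 80.8 CPM in siRCC2 (-0.60 ± 0.12). The groups did not overlap in either gene. VARS2 shares 22% of its exonic bases with GTF2H4 on the same strand, whose fold change of -0.24 ± 0.22 did not pass.

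TARS2, for threonine (chromosome 1, 150487364 to 150507609, plus strand), had 85.5, 81.4 and 76.6 CPM in siCtrl and 69, 69.2 and 63.2 CPM in siRCC2 (-0.27 ± 0.08). Its call was lost without siCtrl replicate 1 (edgeR adjusted p = 0.106), siCtrl replicate 2 (0.0841), siRCC2 replicate 2 (0.110) or siRCC2 replicate 3 (0.0681), and by DESeq2 (adjusted p = 0.0671). RARS2, for arginine (chromosome 6, 87514378 to 87590003, minus strand), rose. It had 18.1, 14.3 and 17.8 CPM in siCtrl and 25.6, 23.6 and 24.5 CPM in siRCC2 (0.55 ± 0.12), without overlap.

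The 12 that did not pass spanned -0.62 to 0.30. FARS2, for phenylalanine, had 19, 20.5 and 14.2 CPM in siCtrl and 14.1, 8.81 and 12.2 CPM in siRCC2 (-0.62 ± 0.21, edgeR adjusted p = 0.0510). It passed in 7 of the 15 alternatives: with upper quartile scaling (0.0478) or total counts (0.0344), by DESeq2 (0.0285) and limma-voom (0.0476), when every gene with a read was kept (0.0454), and without siCtrl replicate 3 (0.0396) or siRCC2 replicate 1 (0.0209). WARS2 (-0.26), YARS2 (-0.21), SARS2 (-0.18) and IARS2 (-0.11), for tryptophan, tyrosine, serine and isoleucine, lay below 0. Of the 50-base stretches of the SARS2 transcript 71.9% also occur in AC011455.2, a gene with 0 to 9 counts per library. On the opposite strand SARS2 also overlaps MRPS12 over 10.8% of its exonic bases, and EARS2 overlaps UBFD1 over 6.46%. MRPS12 rose (0.62) and UBFD1 fell (-0.83), so the values of SARS2 and EARS2 are uncertain too.

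EARS2 (0.16), LARS2 (0.19), HARS2 (0.20), CARS2 (0.24), PARS2 (0.25), AARS2 (0.26) and MARS2 (0.30), for glutamate, leucine, histidine, cysteine, proline, alanine and methionine, lay above 0 and did not pass. The count of higher mitochondrial genes went from 1 to 4 without siRCC2 replicate 3, where AARS2 (0.34, edgeR adjusted p = 0.0296), LARS2 (0.30, edgeR adjusted p = 0.0453) and MARS2 (0.37, edgeR adjusted p = 0.0302) passed. PARS2 was the least abundant member, at 7.4 CPM in siCtrl. Per kilobase, the mitochondrial genes had a median of 9.9 CPM per kb in siCtrl and 9.53 in siRCC2, and IARS2 was the highest (60 and 55.5).

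The members give 17 pairings of a cytosolic with a mitochondrial gene for the same amino acid. EPRS1 and FARS2 enter 2 pairings each. The cytosolic gene had the lower fold change in 14 of the 17, with a median difference of -0.65 on the log2 scale. These differences follow from the values above and were not tested.

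Methionine gave the widest gap. MARS2 was at 17, 17.9 and 16.7 CPM in siCtrl and 22, 22.4 and 19.2 CPM in siRCC2. MARS1 had 36.6, 33.8 and 36.6 times the CPM of MARS2 in siCtrl and 8.61, 8.8 and 9.66 times in siRCC2.

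Alanine came next. AARS2 was at 55.5, 57.6 and 51.6 CPM in siCtrl and 72.4, 65.7 and 59.1 CPM in siRCC2. AARS1 had 32.9, 30.9 and 34.3 times the CPM of AARS2 in siCtrl and 10.9, 11.2 and 11.3 times in siRCC2. For threonine both genes fell, TARS1 by more. TARS1 had 5.55, 5.79 and 6.62 times the CPM of TARS2 in siCtrl and 1.65, 2.03 and 2.47 times in siRCC2. In each of these 3 pairs the ratio was lower in all siRCC2 libraries than in any siCtrl library. These CPM ratios are not scaled for transcript length, so they compare libraries and not the 2 genes.

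PARS2 was at 6.85, 8.08 and 7.26 CPM in siCtrl and 9.98, 8.76 and 7.76 CPM in siRCC2, and EARS2 at 32.1, 38.1 and 33.2 CPM and 38.9, 37.9 and 38.7 CPM. Both overlapped between the groups. The fused EPRS1 had 43.7, 36.8 and 45.4 times the CPM of PARS2 in siCtrl and 10.4, 18.2 and 24.9 times in siRCC2. Against EARS2 it had 9.33, 7.81 and 9.93 times the CPM in siCtrl and 2.66, 4.19 and 4.98 times in siRCC2. Both ratios were lower in every siRCC2 library than in any siCtrl library.

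Valine and asparagine stood apart from these. VARS1 and VARS2 differed in fold change by -0.11 and NARS1 and NARS2 by -0.11, so both compartments were lower for these amino acids. For arginine both genes rose. For histidine and phenylalanine the cytosolic fold change was the higher one. For the 19 cytosolic and 16 mitochondrial genes together, the ratio of the summed CPM was 9.08 to 9.24 in siCtrl and 5.19 to 5.37 in siRCC2.

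**Figure D4:**
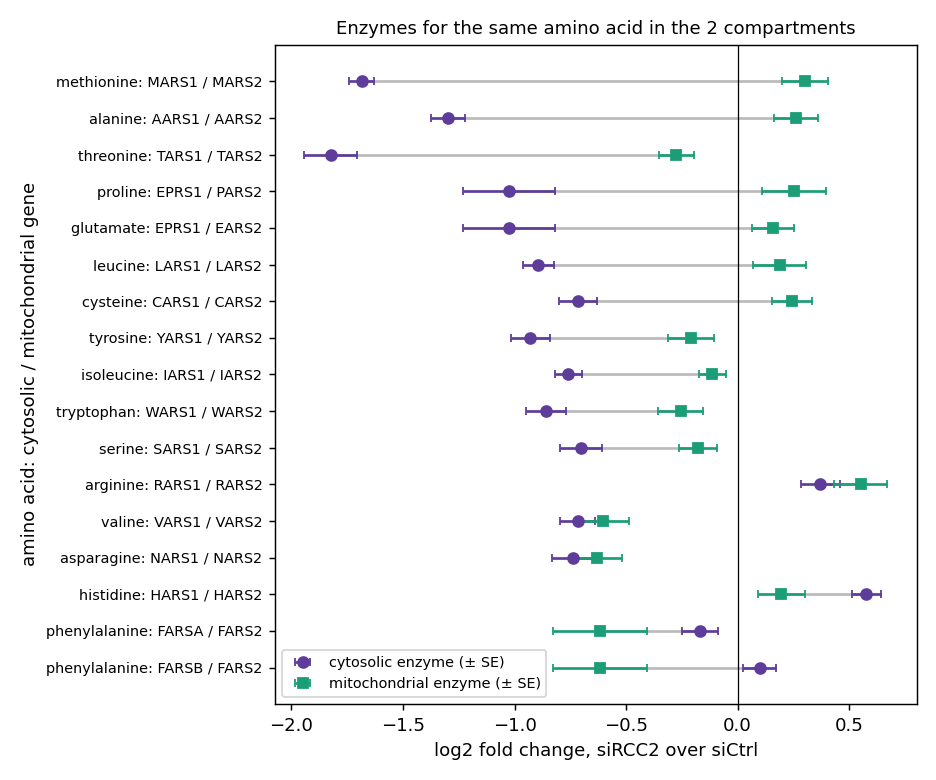
Each row is 1 pairing, named by its amino acid, with the log2 fold change (horizontal axis, ± SE) of the cytosolic gene as a circle and of the mitochondrial gene as a square, ordered by the gap between them. In the upper 11 rows the circle lies left of the square by at least 0.53, and in the lowest 3 rows it lies to the right.

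Among 36 listed genes of the amino acid response 30 were lower, 1 was higher and 5 did not pass, with a median log2 fold change of -1.12. Of all tested genes 21.1% were lower and 20.7% higher, and these shares are the background for the next lists too. As the lists were written with earlier results of these data known, their counts are a description, and no list was compared with the synthetases. PSAT1, an enzyme of serine synthesis, fell from 1105 ± 13.5 to 298 ± 6.6 CPM (-1.89 ± 0.06), and SLC1A4, a transporter of neutral amino acids, from 107 ± 2.51 to 19.8 ± 0.87 CPM (-2.43 ± 0.08). ASNS (-2.80 ± 0.07) and DDIT4 (-2.18 ± 0.08) were the other 2 with the smallest p. ATF4 itself was lower by less, from 726 ± 10.9 to 572 ± 39.7 CPM (-0.34 ± 0.07). ALDH18A1, of proline synthesis, was the 1 gene that rose (0.39 ± 0.10). ATF4 and ALDH18A1 are named after their values were seen.

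Among 15 genes of eIF2, its kinases and its phosphatase subunits, 7 were lower, 2 higher and 6 did not pass. EIF2AK1, the heme-regulated eIF2 kinase, had a fold change of -1.51 ± 0.08, and PPP1R15A and PPP1R15B, which bring phosphatase to eIF2, had -1.04 ± 0.07 and -1.21 ± 0.12. EIF2B5 of the exchange factor fell as well (-1.11 ± 0.10). EIF2AK4, which encodes the tRNA-sensing kinase GCN2 and is named after its values were seen, was at 155 ± 1.01 and 142 ± 9.87 CPM (-0.13 ± 0.07) and did not pass.

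Other genes that act on charged tRNA moved in both directions. Of 16 listed, 7 were lower, 3 higher and 6 did not pass, with a median of -0.34. DTD2 and DTD1, which clear wrongly charged amino acids from tRNA, had fold changes of -1.50 ± 0.11 and -0.72 ± 0.10. GATC, of the complex that makes mitochondrial glutaminyl-tRNA, fell from 79.2 ± 4.17 to 49.1 ± 3.29 CPM (-0.69 ± 0.08).

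A 6-base stretch, TCTGGA, differed in frequency between the 3′ UTRs of genes that moved in these libraries and is set beside the members for that reason. It was chosen from earlier results on these data. Where the 3′ UTR had 100 bases or more, which left 12795 tested genes, 43.5% held it on the transcript's own strand: 55.1% of those lower in siRCC2, 35.4% of those higher and 41.6% of those that did not pass. Of the 11 lower cytosolic genes that could be searched, 2 held it (18.2%), TARS1 with 2 copies and WARS1 with 1. The 3′ UTRs of these 11 were short, with a median of 600 bases against 1414 for all lower genes. None of the 3 lower mitochondrial genes and none of KARS1, HARS1 and RARS1 held it. Their 3′ UTRs were short too, from 109 (RARS1) to 709 bases (NARS2), against a median of 1344 for all searched genes. The part of this stretch in the changes was not tested.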

How the data were processed

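RNA sequencing libraries of DU145 cells were grouped by the sample titles. The authors deposited 1 table of whole-number counts per library. Bowtie2, RSEM and DESeq2, without versions, and the build GRCh38 are named in the submitters' processing notes, so RSEM estimates may have been rounded before deposit. The sources used here give neither the strand setting of the counting nor how rRNA was removed. RSEM divides reads among genes of like sequence.

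The deposited counts were tested with edgeR 4.0.16 in R 4.3.3 (filterByExpr, TMM scaling, quasi-likelihood F-test, Benjamini-Hochberg over 16536 genes, threshold 0.05). Standard errors are |log2 fold change| over the root of the F statistic, and all CPM are scaled by TMM. Within groups, libraries differed beyond sampling noise. The chi-square over its degrees of freedom was 9.56 to 9.9 between siCtrl libraries and 13.1 to 31.9 between siRCC2 libraries. Each library was counted as 1 sample, though this spread does not show that they came from separate cultures.

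Members, lists and the 6-base stretch were chosen with earlier results of these data known. Values per library are given for RCC2, the cofactors and members past the threshold that changed at least 2-fold or against their group's median. The pairs of those members have them too. FARS2, HARS2, QARS1 and RARS2 were added after their values were seen. Of each list, up to 4 genes with the smallest p are given by fold change, some with group means. A few genes under these rules are not reported here. Gene models came from GENCODE release 29 (35 of 38 members at identical coordinates) and promoters from RefSeq. Alternatives were 3 other scalings, DESeq2 1.42.0, limma-voom (limma 3.58.1), 2 other filters, a replicate block, each library left out and a threshold of 0.01. Python 3.11.15 and matplotlib 3.10.9 drew the figures.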

Additional observations from a re-analysis of the deposited data

How the results depend on the processing

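The 15 alternatives left 27 of the 38 members with the same direction and the same side of the threshold. The number of cytosolic genes past the threshold ranged from 16 to 18 (17 as reported) and that of mitochondrial genes from 3 to 6 (4 as reported), with 5 lower under total counts alone against 3 as reported. All genes past the threshold numbered 6911, and 4117 at the stricter threshold of 0.01. The count of cofactors past the threshold, 1 as reported, was 2 with DESeq2-type size factors, by DESeq2, by limma-voom and with a mean of at least 1 CPM. It was 0 with total counts, when every gene with a read was kept, and at 0.01, and it was 0 to 2 with each library left out. The median of the mitochondrial genes changed sign with total counts (-0.0455) or keeping every gene with a read (-0.0091). With each library left out AIMP2 ranged from -0.215 to 0.03, the positive value coming without siRCC2 replicate 2. The causes were not tested.

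Same-numbered libraries did not deviate together (correlations of 0.06, -0.04 and 0.10), and 3 of 6 libraries correlated best with their own number. With the replicate number as a block, 6295 genes passed, with 17 cytosolic, 4 mitochondrial and 0 cofactor genes among them.

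At these depths PARS2, the least abundant member, rests on 138 to 170 reads per library.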

Other observations

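Genes that make and modify tRNA were listed beside the synthetases. Of 31 genes for transcription, processing and export of tRNA, 7 were higher, 7 lower and 17 did not pass, with a median log2 fold change of 0.05. This count lies near the background, since 20.7% of all tested genes were higher and 21.1% lower. GTF3C5 and GTF3C3, subunits of the factor that binds tRNA gene promoters, had fold changes of -1.23 ± 0.11 and -1.13 ± 0.11. GTF3A, the factor for 5S RNA genes, rose from 24.3 to 56.4 CPM (1.21 ± 0.12), and BRF2, which serves another type of RNA polymerase III promoter, rose by 1.04 ± 0.10. Of 57 tRNA modification genes, 9 were higher, 11 lower and 37 did not pass, with a median of -0.12, and these counts too are read against those shares. DUS2, a dihydrouridine synthase, rose from 30.8 to 55.1 CPM (0.84 ± 0.10), and TRMU, which thiolates mitochondrial tRNA, by 0.62 ± 0.09. ELP2 of the Elongator complex (-0.78 ± 0.10) and QTRT1, which inserts queuine (-0.96 ± 0.13), fell.

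Factors that use charged tRNA were listed as well. Of 9 cytosolic elongation factor genes, 2 were higher, 3 lower and 4 did not pass, with a median of -0.16. EIF5A fell from 372 to 215 CPM (-0.79 ± 0.09), EEF1G from 1199 to 802 CPM (-0.58 ± 0.12) and EEF2 from 5581 to 4277 CPM (-0.38 ± 0.08), while EEF2K, the kinase that restrains EEF2, rose by 0.41 ± 0.09. Of 12 mitochondrial translation factor genes, MTRF1L rose (0.59 ± 0.15), TSFM fell (-0.82 ± 0.23) and 10 did not pass, among them TUFM (0.25 ± 0.09) and LRPPRC (-0.37 ± 0.14).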
